A study of Mus musculus with 11 samples.

Results

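The genes described here encode the proteins that hold paired chromosomes together in meiosis: 10 genes of the synaptonemal complex and of meiotic cohesin, out of 19938 genes that a probe set of the array names by 1 symbol. The set is Sycp1, Sycp2, Sycp3, Syce1, Syce2, Tex12, Hormad1, Stag3, Smc1b and Rec8. Each had at least 1 probe set, with 11 probe sets in all because Hormad1 had a pair of them. The set was chosen from measured values, because Sycp1 and Syce1 were higher in Dnmt3b-deficient than in wild-type lymphoma. That contrast is therefore described below without a test for any of the 10 genes, as are all levels of Sycp1 and Syce1 in lymphomas.

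Thymus RNA of FVB mice was hybridised to 11 whole-transcript arrays, and the study asked what loss of Dnmt3b does to gene expression in lymphoma driven by MYC. Normal thymocytes (n = 3) came from mice aged 24 days that carried EμSR-tTA, Teto-Cre and Rosa26LOXPEGFP with Dnmt3b+/+, but without Teto-MYC. Wild-type lymphomas (n = 3) carried EμSR-tTA, Teto-MYC and Rosa26LOXPEGFP with Dnmt3bF/F and no Cre, so that the floxed Dnmt3b gene stayed whole. Dnmt3b-deficient lymphomas (n = 3) and Dnmt3b-deficient pre-tumor thymocytes (n = 2, at 24 days) carried EμSR-tTA, Teto-MYC, Teto-Cre and Rosa26LOXPEGFP with Dnmt3b-/-. All groups carried the tTA activator, which acts in blood cells and switches on the Teto transgenes, and the EGFP reporter that Cre turns on. Pre-tumor thymi were sorted for EGFP, tumors were lysed unsorted once disease was evident, and the labels do not make clear whether the normal thymocytes were sorted. Pre-tumor and normal thymocytes therefore differ in MYC and in Dnmt3b at once, and perhaps in sorting. Among the lymphomas Cre goes with the Dnmt3b genotype, and among the Dnmt3b-deficient samples sorting goes with stage. The effects in each comparison cannot be told apart. Because each sample is a bulk of cells, fewer cells of a type and less RNA per cell cannot be told apart either.

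In meiosis, homologous chromosomes are zipped together by the synaptonemal complex. Sycp2 and Sycp3 build its lateral elements along each chromosome axis, Sycp1 forms the transverse filaments that bridge the axes, and Syce1, Syce2 and Tex12 make up the central element where the filaments meet. Hormad1 binds axes that are not yet paired. The axes rest on cohesin rings in which meiotic subunits replace mitotic ones: Rec8 replaces the kleisin Rad21, Smc1b replaces Smc1a, and Stag3 replaces Stag1 and Stag2. These genes are used in germ cells and are silent in most somatic cells, where many germline promoters carry DNA methylation at CG dinucleotides; Dnmt3b is one of the enzymes that place such methylation.

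The deposited values are log2 levels with a floor at 3.32, which is log2 of 10, below which no level can be read. On each array 23.6% to 25.7% of the values in the table lay at this floor, array medians were 4.55 to 4.62, and Pearson r between arrays of a group was 0.968 to 0.985. As a mean over 8 of 9 listed genes, the T lineage markers were high in every group. The mean was 10.3 to 10.4 in normal and 9.14 to 9.58 in pre-tumor thymocytes. In lymphomas it was 8.39 to 8.75 (wild-type) and 8.58 to 8.90 (Dnmt3b-deficient). Single markers differed: Cd8a was 12.0 to 12.1 in normal thymocytes and 6.48 to 9.46 in wild-type lymphomas, and Cd28 was 7.83 to 8.30 and 7.49 to 8.08. The targeted gene, Dnmt3b, ranged from 5.07 to 5.70 over the 11 samples; the labels do not say whether its probe set lies in the deleted part, so it checks no genotype.

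The genes fell into those that never left the floor, those that were steady, and those that were high in some samples. Sycp2, Sycp3, Tex12, Hormad1 and Smc1b, 5 of the 10, were at the floor on all 11 arrays, with 6 of the 11 probe sets. Over the array, 16.5% of probe sets were at the floor throughout. Syce2 and Rec8 were above the floor in every sample, at nearly the same level in every group. Sycp1, Syce1 and Stag3 were highest in Dnmt3b-deficient samples, each in a different selection of them.

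Promoter sequence was compared first, because it is a feature that the choice of the genes did not use and because CG dinucleotides are where DNA methylation is placed. RefSeq (GRCm38.p6) gave windows of 300 bases, 250 before and 50 after a gene's start, for all 10 genes, with 12 windows in all. The 250 bases before the start are shown for the genes whose level varied most, Sycp1, Syce1 and Stag3, and for Smc1b as one that stayed at the floor, each 5′ to 3′ on the gene's strand with CG in capitals.
Sycp1, chr3:102936101-102936350 (minus strand): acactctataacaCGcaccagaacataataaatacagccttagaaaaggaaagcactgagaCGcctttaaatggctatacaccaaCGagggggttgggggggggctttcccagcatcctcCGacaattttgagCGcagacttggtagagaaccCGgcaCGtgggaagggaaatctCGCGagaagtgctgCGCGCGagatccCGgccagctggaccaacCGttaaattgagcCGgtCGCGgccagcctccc
Syce1, chr7:140787855-140788104 (minus strand): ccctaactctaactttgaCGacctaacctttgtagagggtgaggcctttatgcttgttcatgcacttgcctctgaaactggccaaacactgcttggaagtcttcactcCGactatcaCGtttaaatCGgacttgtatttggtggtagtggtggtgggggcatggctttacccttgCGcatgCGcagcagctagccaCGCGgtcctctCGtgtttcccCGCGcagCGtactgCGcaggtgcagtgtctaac
Stag3, chr5:138280259-138280508 (plus strand): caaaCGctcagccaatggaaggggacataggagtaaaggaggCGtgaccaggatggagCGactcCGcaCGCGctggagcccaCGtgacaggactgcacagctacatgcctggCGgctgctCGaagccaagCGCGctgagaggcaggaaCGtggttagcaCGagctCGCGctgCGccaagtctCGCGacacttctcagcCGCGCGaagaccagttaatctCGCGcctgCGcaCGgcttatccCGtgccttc
Smc1b, chr15:85131958-85132207 (minus strand): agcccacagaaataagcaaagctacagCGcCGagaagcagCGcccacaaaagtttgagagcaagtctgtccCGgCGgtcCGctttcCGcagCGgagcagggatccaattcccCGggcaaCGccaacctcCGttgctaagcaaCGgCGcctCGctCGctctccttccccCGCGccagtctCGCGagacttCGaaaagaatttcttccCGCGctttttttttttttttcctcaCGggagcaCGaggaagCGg
All of the genes, varying or silent, had more CG dinucleotides than the median promoter window, which held 7. Sycp1 had 21 in its 300 bases, a number reached by 24.8% of the 32817 windows. Syce1 had 14, reached by 36.3%. Stag3 had 30, reached by 11.7%. Among the genes at the floor, Smc1b had 29 (12.9%), Tex12 26 (16.9%), Hormad1 24 (20.0%), Sycp3 15 (34.6%) and Sycp2 10 (43.4%). Sycp1 and Syce1 thus lay within the range of the genes at the floor, and Stag3 was 1 above its upper end. Syce2 had 19 and 33 in its windows, and Rec8 had 18.

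Transcription factor motifs known from germline promoters were also searched on both strands: TCCCGC, the core recognised by E2F factors, and CACGTG, the E-box recognised by MYC and related factors. TCCCGC was present for 8 of the 10 genes, in 10 of 12 windows, and in 20.0% of all windows. CACGTG was present for 6 of the 10 genes, in 7 of 12 windows, and in 7.15% of all windows. Among the 14258 windows with at least 10 CG, the fewest in any of the genes, the shares were 40.3% and 10.9%. The 6 genes with CACGTG, namely Hormad1, Sycp1, Stag3, Syce2, Tex12 and Sycp3, also had TCCCGC in the same window. In Sycp1 the CACGTG match began at position -94 from the start, and the TCCCGC match at position 3 after it, outside the bases shown. Sycp2 and Syce1 had neither. Each motif holds a CG and so adds to the CG count, a match is not a binding site, and genes at the floor held them as well as genes that varied.

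**Figure D1:**
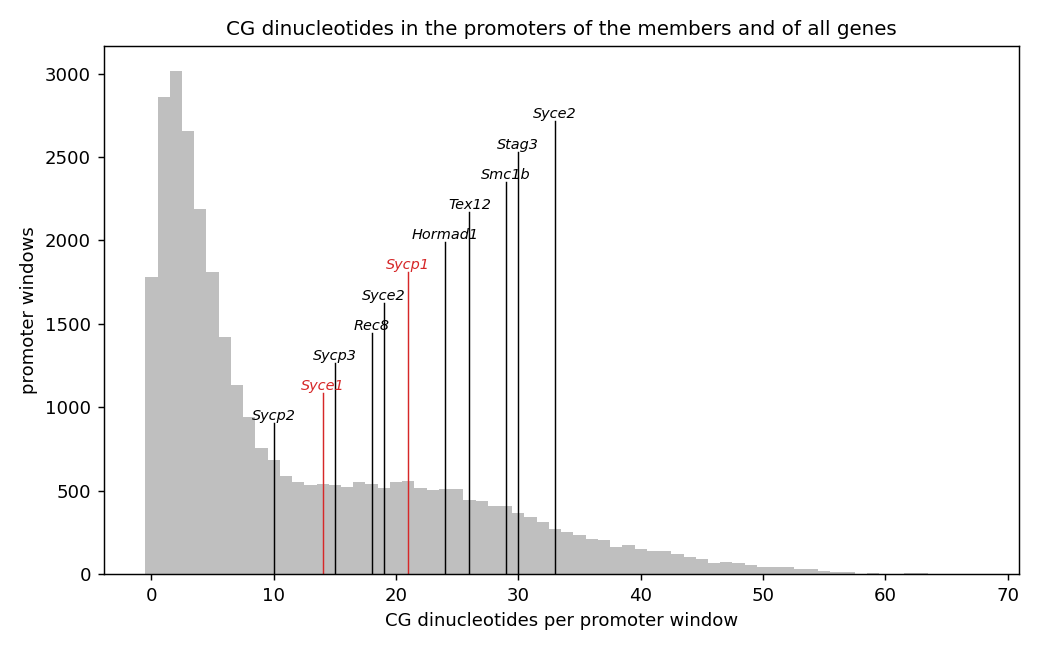
The number of CG dinucleotides per promoter window of 300 bases (x axis) is plotted against the number of windows with that many (y axis, grey bars, all 32817 windows). Vertical lines mark the 10 genes, Sycp1 and Syce1 in red, with line heights chosen only to separate the labels; all stand at 10 or more, above the median of 7.

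Sycp1, the transverse filament protein, was at the floor in all 3 normal thymocyte samples and in all 3 wild-type lymphomas. In Dnmt3b-deficient lymphomas its log2 level was 7.19, 7.03 and 3.41 in replicates 1, 2 and 3. In pre-tumor thymocytes it was 6.52 and 7.83. It was thus above the floor in 5 of 5 Dnmt3b-deficient samples and in 0 of 6 samples with Dnmt3b intact, although lymphoma replicate 3 stood only just above the floor. Of all probe sets, 3 (0.0104%) showed this presence and absence; it includes the contrast that chose Sycp1, so it is a description. The order of the group means was pre-tumor (7.17), Dnmt3b-deficient lymphoma (5.87 ± 2.14, SD, n = 3), then the groups at the floor, and the first pair overlapped. Between the lymphomas the mean difference was at least 2.55 on the log2 scale, and 1.90 to 3.79 when any 1 sample was left out.

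In pre-tumor against normal thymocytes, the group means use no array of the contrast behind the choice. The SE and p-values do use those arrays, because the spread was estimated over all groups, so this test is not fully separate from the choice. Sycp1 rose there by at least 3.85 on the log2 scale, at least 14.5-fold, with SE 1.06 (limma, adjusted p = 0.0410 over 28939 probe sets). It was the 1 of the 10 genes that passed, and 9.69% of all probe sets passed in this direction. This call rests on every sample of the comparison. The adjusted p was 0.0880, 0.0987 and 0.0867 without normal replicate 1, 2 or 3, 0.0713 and 0.260 without pre-tumor replicate 1 or 2, and 0.0645, 0.0661 and 0.0629 without wild-type lymphoma replicate 1, 2 or 3. It was 0.00182 without Dnmt3b-deficient lymphoma replicate 3, the sample near the floor, which enters through the shared estimate of spread. With 2 samples at 6.52 and 7.83 against 3 at the floor, the groups stood 3.20 apart at their nearest.

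Syce1, a central element protein, was near the floor in the samples with intact Dnmt3b and up to 7.55 in the others. Normal thymocytes had log2 levels of 3.49, 4.09 and 3.88, and wild-type lymphomas 3.51, 3.54 and 3.87. The Dnmt3b-deficient lymphomas had 3.98, 6.77 and 7.55. The pre-tumor samples had 5.63 and 6.49. Dnmt3b-deficient lymphoma replicate 1 was therefore inside the range of normal thymocytes, while the other two and both pre-tumor samples were above every sample with intact Dnmt3b. Group means ran from 6.10 ± 1.87 (Dnmt3b-deficient lymphoma) and 6.06 (pre-tumor) to 3.82 ± 0.30 (normal) and 3.64 ± 0.20 (wild-type lymphoma; SD, n = 3), and the members of each of these pairs overlapped. Across the pairs, the Dnmt3b-deficient lymphomas overlapped the normal thymocytes through that 1 tumor, and the other groups did not overlap.

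Between the lymphomas Syce1 differed by 2.46, with 0.11 between the nearest samples, and the difference was 1.74 to 3.52 when any 1 sample was left out. Together, 2 of the 10 genes (Sycp1 and Syce1) were higher in every Dnmt3b-deficient than in every wild-type lymphoma, beside 4.64% of all probe sets. The genes were chosen on this contrast, so the count is a description. Between the lymphomas 0.00691% of probe sets passed limma in either direction. In the pre-tumor comparison Syce1 was 2.24 higher than in normal thymocytes (SE 0.92), with 1.54 between the nearest samples, and missed the threshold (limma, adjusted p = 0.145). It passed without Dnmt3b-deficient lymphoma replicate 1 (0.00915) and when the dimmest 40% of probe sets were left out (0.0472).

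Sycp1 and Syce1 were high together in 1 of the 3 Dnmt3b-deficient tumors. Dnmt3b-deficient lymphoma replicate 1 had Sycp1 at 7.19 and Syce1 at 3.98, replicate 3 had them the other way round at 3.41 and 7.55, and replicate 2 had both, at 7.03 and 6.77. Both pre-tumor samples had both. Over the 11 samples the genes correlated with Pearson r = 0.50, which describes samples that share groups.

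Stag3, the meiotic STAG subunit of cohesin, was highest in the pre-tumor thymocytes. Its log2 level was 5.92 and 5.43 there, beside 4.60, 4.45 and 4.45 in normal thymocytes. The Dnmt3b-deficient lymphomas had 4.12, 5.62 and 4.32. The wild-type lymphomas had 3.89, 4.49 and 3.62. Group means fell in the order pre-tumor (5.68), Dnmt3b-deficient lymphoma (4.69 ± 0.82), normal (4.50 ± 0.08; SD, n = 3) and then wild-type lymphoma (SD 0.44, n = 3), each overlapping the next in this order. Pre-tumor samples stood above all normal samples, and Dnmt3b-deficient lymphoma replicate 2, which had both Sycp1 and Syce1, was the one lymphoma within the pre-tumor range. The pre-tumor difference from normal of 1.18 (SE 0.46) did not pass (limma, adjusted p = 0.122), and passed without Dnmt3b-deficient lymphoma replicate 2 (0.0276) or without the dimmest 40% of probe sets (0.0403).

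In the pre-tumor comparison 3 of the 10 genes, Sycp1, Syce1 and Stag3, were higher without overlap, beside 17.4% of all probe sets, and the same number had an unadjusted p under 0.05, beside 31.4%. None of the 10 fell, beside 9.88% of probe sets. The genes at the floor throughout, and Sycp1, which was at the floor in normal thymocytes, could not be called lower. Over the 11 samples Stag3 correlated with Sycp1 at r = 0.67 and with Syce1 at r = 0.58. These correlations use the lymphoma values that chose Sycp1 and Syce1, and samples that share groups, so they are a description.

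**Figure D2:**
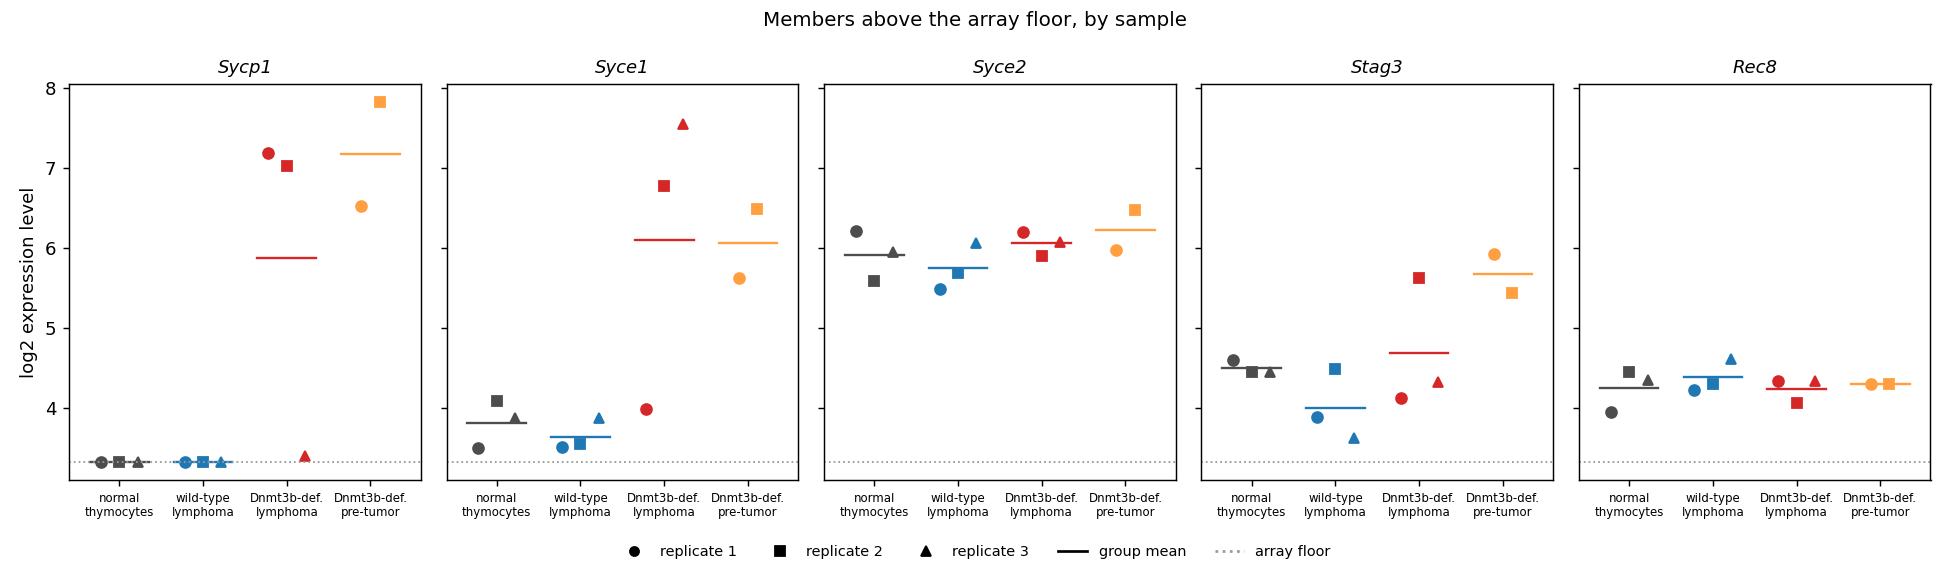
Log2 expression level (y axis) of the 5 genes above the floor, for each sample of the 4 groups (x axis); marker shapes are replicate numbers, horizontal bars group means and the dotted line the floor of 3.32. Sycp1 is high in Dnmt3b-deficient lymphoma replicates 1 and 2, Syce1 in replicates 2 and 3, and both genes in both pre-tumor samples. Stag3 is highest before tumors, and Syce2 and Rec8 are level across groups.

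Syce2, the other central element gene above the floor, had log2 levels of 6.21, 5.59 and 5.95 in normal thymocytes and of 5.49, 5.68 and 6.07 in the wild-type lymphomas. The Dnmt3b-deficient lymphomas had 6.20, 5.91 and 6.08, and the pre-tumor samples 5.97 and 6.47. All 4 groups overlapped one another. Against normal the pre-tumor difference was 0.31 (SE 0.24; limma, adjusted p = 0.482).

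Rec8, the meiotic kleisin, had log2 levels of 3.95, 4.44 and 4.35 in normal thymocytes and of 4.23, 4.30 and 4.62 in the wild-type lymphomas. The Dnmt3b-deficient lymphomas had 4.33, 4.06 and 4.33, and the pre-tumor samples 4.30 each. The groups overlapped, and the pre-tumor difference from normal was 0.05 (SE 0.17).

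In the lymphomas, the 8 genes other than Sycp1 and Syce1 of which 3 were above the floor, were also tested against normal thymocytes, and 0 passed in either group; 0 had an unadjusted p under 0.05, beside 31.2% of probe sets in wild-type and 30.3% in Dnmt3b-deficient lymphomas. In wild-type lymphomas, where 9.58% of probe sets rose and 10.3% fell, the differences were -0.50 for Stag3 (limma, adjusted p = 0.486), -0.17 for Syce2 (0.734) and 0.13 for Rec8 (0.679). In Dnmt3b-deficient lymphomas, where 9.70% rose and 10.5% fell, they were 0.19 for Stag3 (0.942), 0.15 for Syce2 (0.814) and -0.00495 for Rec8 (1.0). These comparisons share the normal samples with each other and with the pre-tumor one.

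Between the stages of the Dnmt3b-deficient genotype, 0.0311% of probe sets were higher in lymphoma and 0.0380% lower, and 0 of the 8 genes passed (0 at an unadjusted p under 0.05, beside 9.43% of probe sets). Stag3 differed by -0.99 in lymphoma against pre-tumor thymocytes (SE 0.46; limma, adjusted p = 0.559), Syce2 by -0.16 and Rec8 by -0.06. As a description, Sycp1 differed by -1.30 and Syce1 by 0.04. Pre-tumor thymi were sorted for EGFP and tumors were not, so stage and sorting cannot be told apart in these differences.

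The 4 lists of related genes place these values in the wider meiotic programme. The lists hold 58 genes, 50 of them on the array, and were compared in the same fit. Between the lymphomas 0 passed limma (2 at an unadjusted p under 0.05, beside 6.30% of probe sets), and between Dnmt3b-deficient lymphoma and pre-tumor thymocytes 0 passed (3 at an unadjusted p under 0.05, beside the 9.43% above); with 1 sample left out, at most 1 passed in either.

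Of 7 other synaptonemal complex and axis genes on the array, 3 were at the floor throughout, and Ccnb1ip1 and Trip13 rose in all 3 groups with MYC. In pre-tumor thymocytes, wild-type and Dnmt3b-deficient lymphomas 3, 2 and 2 of the 7 rose and 0 fell. Of all probe sets, 9.69%, 9.58% and 9.70% rose and 9.88%, 10.3% and 10.5% fell, in the same order. Ccnb1ip1, a crossover factor also known as HEI10, was 4.26 to 4.43 in normal thymocytes and 7.59 to 9.05 in the 8 other samples. It rose by 3.56 in pre-tumor thymocytes (SE 0.37; limma, adjusted p = 0.00179), by 3.49 in wild-type lymphomas (0.000865) and by 3.92 in Dnmt3b-deficient lymphomas (0.000456). Trip13, an ATPase that removes HORMA-domain proteins from axes and also acts at the mitotic checkpoint, rose by 1.61, 1.50 and 1.76 (0.00143, 0.000836 and 0.000374). Sgo2a, which protects centromeric cohesin, rose by 1.89 in pre-tumor thymocytes (0.0347). That call was lost in 6 of 11 leave-outs: without pre-tumor replicate 2 (0.247), normal replicate 1 or 2 (0.0574 and 0.0700), wild-type lymphoma replicate 1 or 2 (0.0516 and 0.0574) and Dnmt3b-deficient lymphoma replicate 1 (0.0521). The list's median difference over all 7 genes was 0 in the pre-tumor comparison, against -0.02 over all probe sets, and 1.75 over the 4 genes above the floor, for which no matching background was computed.

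Of 21 meiotic recombination and pairing genes on the array, 9 were at the floor throughout, and Spo11 fell in every group with MYC. In pre-tumor thymocytes, wild-type and Dnmt3b-deficient lymphomas 1 gene rose each time, and 2, 1 and 2 fell. Of all probe sets, 9.69%, 9.58% and 9.70% rose and 9.88%, 10.3% and 10.5% fell, so no count of this list exceeded its share. Spo11, whose protein makes the double-strand breaks that start meiotic recombination, was 7.50, 6.85 and 7.25 in normal thymocytes and 4.17 to 5.17 in the other 8 samples, with no overlap. It fell by 2.53 in pre-tumor thymocytes (limma, adjusted p = 0.00288), by 2.54 in wild-type lymphomas (0.00128) and by 2.73 in Dnmt3b-deficient lymphomas (0.000863); the first was 0.0586 with only the 2 groups compared in the fit. Mlh3, a mismatch repair protein used in crossovers, rose by 1.46, 0.96 and 0.94 (0.00687, 0.0182 and 0.0187). In wild-type lymphomas the Mlh3 call was lost without normal replicate 1 or 2 (0.0583 and 0.0642) or wild-type replicate 1 or 3 (0.0622 and 0.0550), and in Dnmt3b-deficient lymphomas without normal replicate 1 or 2 (0.0614 and 0.0658) or Dnmt3b-deficient replicate 1 (0.0525). Psmc3ip, a recombinase cofactor, fell by 0.66 in pre-tumor thymocytes (0.0429) and by 0.57 in Dnmt3b-deficient lymphomas (0.0470). Its calls held in 2 of 11 leave-outs each: without pre-tumor replicate 2 or Dnmt3b-deficient lymphoma replicate 1 for the first, and without either pre-tumor sample for the second. The highest adjusted p was 0.190 and 0.143. The list's median difference over all 21 genes was 0 in each of the 3 comparisons, and -0.11, -0.10 and -0.04 over the 12 genes above the floor.

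Of 6 meiotic entry genes on the array, 3 were at the floor throughout. Ythdc2, an RNA helicase that supports entry into meiosis, rose by 1.55 in pre-tumor thymocytes (limma, adjusted p = 0.00844, and 0.0772 without pre-tumor replicate 2 or 0.0580 with only the 2 groups compared), by 1.32 in wild-type lymphomas (0.00855) and by 1.51 in Dnmt3b-deficient lymphomas (0.00447). It was the 1 gene of the 6 to pass, beside the 9.69%, 9.58% and 9.70% of all probe sets that rose in these comparisons.

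Many mitotic cohesin genes rose in all 3 groups with MYC. All 16 listed genes were above the floor, and 12 rose and 1 fell in pre-tumor thymocytes, 9 rose and 1 fell in wild-type lymphomas, and 8 rose and 1 fell in Dnmt3b-deficient lymphomas. Of all probe sets, 9.69%, 9.58% and 9.70% rose and 9.88%, 10.3% and 10.5% fell, in the same order. The 16 genes had median differences from normal of 1.83, 1.44 and 1.42, against -0.02 or 0 over all probe sets. Probe sets at the floor throughout enter those shares and medians, and no background of genes above the floor was computed. Smc1a, the subunit that Smc1b replaces, was 6.90, 5.67 and 7.15 in normal thymocytes, 8.52 to 8.81 in wild-type lymphomas, 8.23 to 9.09 in the Dnmt3b-deficient ones and 8.98 and 9.11 in pre-tumor samples. It rose by 2.47, 2.07 and 2.11 (limma, adjusted p = 0.00880, 0.00952 and 0.00811) in the pre-tumor, wild-type lymphoma and Dnmt3b-deficient lymphoma comparisons, and the first was 0.0706 without pre-tumor replicate 2. Smc1b stayed at the floor on every array.

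Stag2, one of the subunits that Stag3 replaces, rose by 2.73 in pre-tumor thymocytes (limma, adjusted p = 0.0200). Smc3, which serves both kinds of ring, rose by 2.66, and Pds5a, a regulator of cohesin release, by 2.72 (0.0163 and 0.00603). In wild-type lymphomas Pds5a rose by 2.41, Smc3 by 2.00 and Stag2 by 1.96 (0.00478, 0.0294 and 0.0435), and in Dnmt3b-deficient lymphomas Pds5a rose by 2.56, Smc3 by 2.28 and Wapl, which opens cohesin rings, by 1.87 (0.00337, 0.0167 and 0.0247). Mau2, part of the cohesin loader, fell in the pre-tumor, wild-type lymphoma and Dnmt3b-deficient lymphoma comparisons, with differences of -1.16, -1.05 and -1.20 (0.00359, 0.00251 and 0.00128). Rad21, the kleisin that Rec8 replaces, was named as a counterpart after its values were seen. It was 8.46 to 8.70 in normal thymocytes and 9.26 and 9.40 in pre-tumor samples, and rose by 0.72 (limma, adjusted p = 0.0140). That call was lost with only the 2 groups compared and with a replicate block. Rad21 was 8.70 to 8.83 in wild-type and 8.58 to 9.06 in Dnmt3b-deficient lymphomas, and passed in neither comparison with normal thymocytes.

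These counts depend on single samples, and so do those over the whole array. Array counts are given for fits that kept at least 2 samples in each group. Without pre-tumor replicate 2, which leaves 1 pre-tumor sample, fewer probe sets rose over the array as well. In pre-tumor thymocytes 7 genes rose without pre-tumor replicate 1 and 2 without pre-tumor replicate 2. In wild-type lymphomas 3, 3 and 4 rose without wild-type replicate 1, 2 or 3, and 5 without normal replicate 1 or 2. Over the array 1744, 2009 and 2521 probe sets rose without wild-type replicate 1, 2 or 3, beside 2773 with all samples. Without normal replicate 1 or 2 the array counts were 2073 and 1918. In Dnmt3b-deficient lymphomas 5 and 4 rose without Dnmt3b-deficient replicate 1 or 2, and 5 without normal replicate 1. The array counts in these fits were 2376, 2040 and 2154, beside 2808 with all samples. Normal replicate 2 was lower than the other normal samples for many of these genes, as for Smc3 at 4.93 beside 6.59 and 6.91, and without it 12, 5 and 6 rose in the 3 comparisons. Stag2 was lost in pre-tumor thymocytes without normal replicate 1 (0.0505) or pre-tumor replicate 1 or 2 (0.0504 and 0.145), Smc3 without pre-tumor replicate 1 or 2 (0.0516 and 0.114), and Pds5a without pre-tumor replicate 2 (0.0524). In wild-type lymphomas Stag2 was lost in 9 of 11 leave-outs (adjusted p up to 0.128), held only without normal replicate 3 or Dnmt3b-deficient replicate 2, and Smc3 was lost without wild-type replicate 1, 2 or 3 (0.0998, 0.0667 and 0.0621). In Dnmt3b-deficient lymphomas Smc3 was lost without Dnmt3b-deficient replicate 2 (0.0614), and Wapl without Dnmt3b-deficient replicate 1 or 2 (0.0618 and 0.0859) or normal replicate 1 (0.0521). With only the 2 groups compared in each fit, 1, 3 and 2 of the listed genes rose. Over the array 850, 2420 and 2142 of 28939 probe sets rose in those fits, beside 2804, 2773 and 2808 in the main fit.

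**Figure D3:**
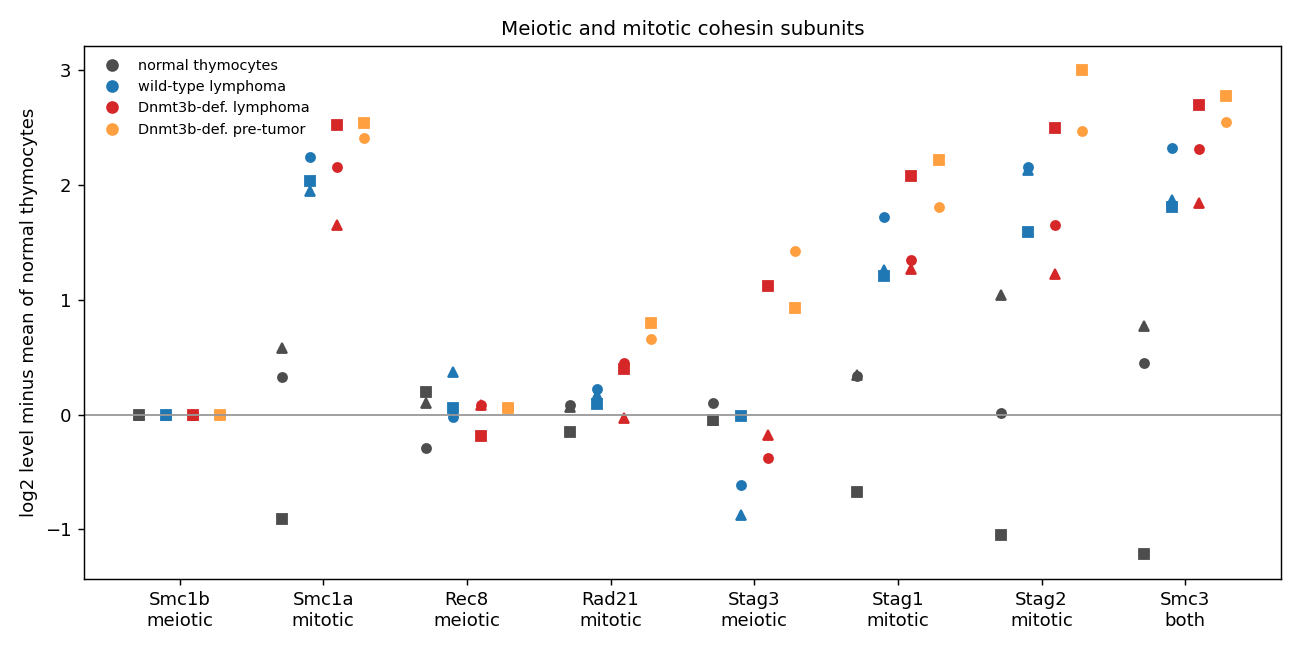
Log2 level minus the mean of normal thymocytes (y axis) for meiotic and mitotic cohesin subunits (x axis), for each sample; colours are groups, and circles, squares and triangles are replicates 1, 2 and 3. Smc1b lies at the floor throughout and Rec8 stays within the spread of normal thymocytes or near it, while Smc1a, Stag1, Stag2 and Smc3 are above every normal sample in all 8 others.

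The neighbours of the 5 genes above the floor were examined in RefSeq gene order, and the genes named here were chosen after their values were seen, so they carry no test. Of up to 3 neighbours on each side, those with a probe set of 1 symbol were used: 4 for Sycp1, 6 for Syce1, 5 for Syce2, 6 for Rec8 and 5 for Stag3. Nr1h5, a nuclear receptor gene next to Sycp1 on chromosome 3, was at the floor in all 3 normal samples and above it in all 8 others. The wild-type lymphomas had Nr1h5 at 3.98, 7.62 and 5.62, the Dnmt3b-deficient ones at 7.36, 7.85 and 6.03, and the pre-tumor samples at 6.77 and 7.97. Unlike Sycp1 it was thus above the floor in wild-type lymphomas, where replicate 2 had Nr1h5 at 7.62 and Sycp1 at the floor.

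Tshb, on the other side of Sycp1, stayed between the floor and 3.69. Sike1, beyond Nr1h5, was 5.74 to 6.86 in all groups. Tspan2, beyond Tshb, was 3.40 to 4.59 in wild-type lymphomas, 5.08 to 6.58 in Dnmt3b-deficient lymphomas, 5.08 to 6.28 in normal thymocytes and 4.92 and 5.20 in pre-tumor thymocytes. Around Syce1, on chromosome 7, Cyp2e1 and Olfr541 were at the floor on all 11 arrays, and Zfp941, Urah, Scgb1c1 and Olfr45 lay between the floor and 4.46. The differences of these 6 genes between the lymphoma genotypes were -0.06 to 0.26.

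**Figure D4:**
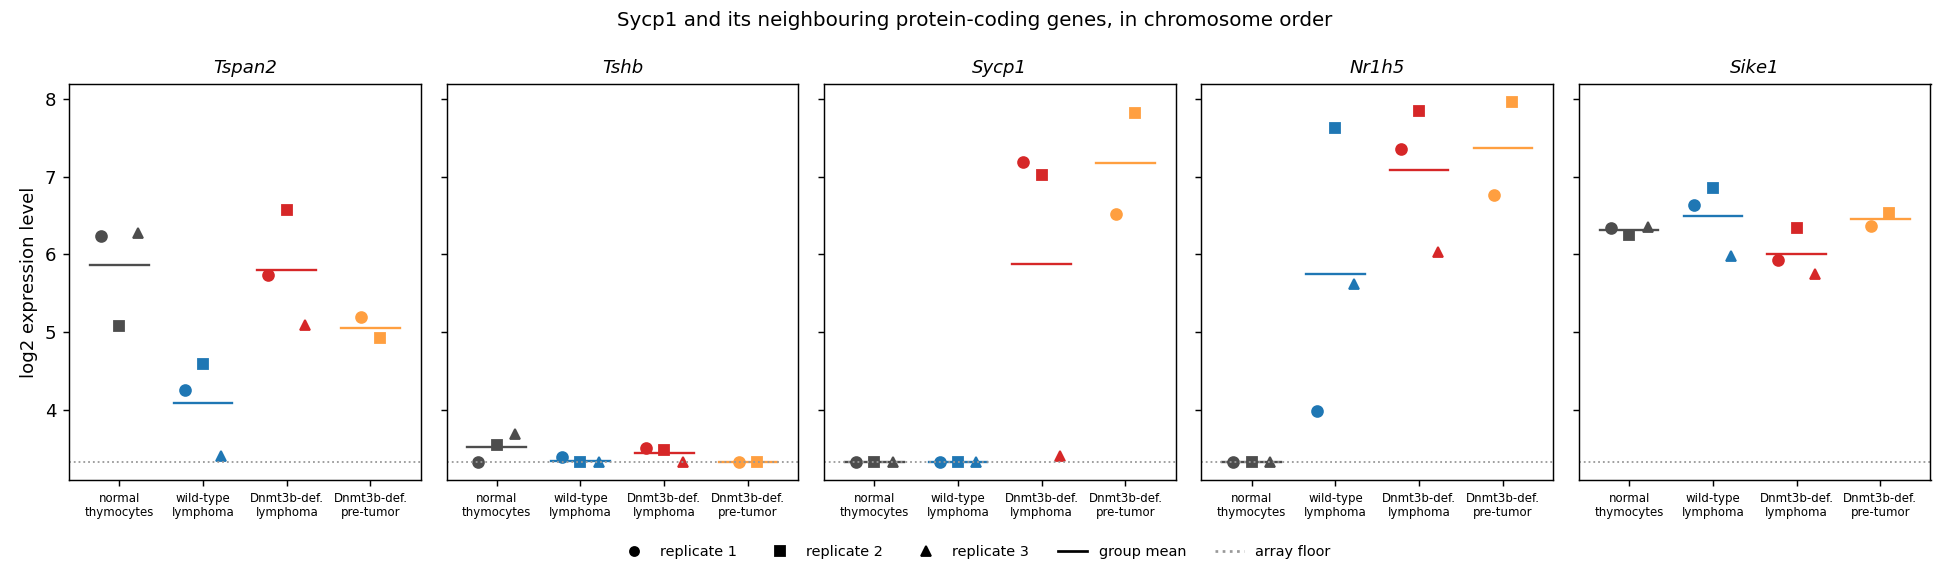
Log2 expression level (y axis) of Sycp1 and the 4 measured genes nearest to it in RefSeq order, for each sample of the 4 groups (x axis); marker shapes are replicate numbers, horizontal bars group means and the dotted line the floor. Nr1h5 is above the floor in all 8 samples with the MYC transgene, Sycp1 in the 5 that are also Dnmt3b-deficient, and Tshb stays at or near the floor.

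Among 17016 probe sets eligible for the comparison of patterns, those most like Sycp1 over the 11 samples by Pearson correlation were Zbtb44 (0.93), Topors (0.90), Mpp5 (0.90), Dipk2a (0.89) and Plch1 (0.89). The correlations use the lymphoma values that chose Sycp1 and Syce1, so the rankings are a description. A high correlation can go with a small change. Zbtb44 was 7.10 to 7.37 in the samples with intact Dnmt3b, 7.61, 7.68 and 7.37 in the Dnmt3b-deficient tumors and 7.74 and 7.90 before tumors. Plch1, a phospholipase C gene, was 3.52 to 3.89 in the samples with intact Dnmt3b, 5.10, 4.19 and 3.81 in the Dnmt3b-deficient tumors and 5.30 and 5.10 before tumors. Those most like Syce1 were Apobec2 (0.96), Prg4 (0.93), Rpl39l (0.91), Atp10d (0.91) and Dock2 (0.90). Apobec2, of the cytidine deaminase family, was 3.93 to 4.63 in the samples with intact Dnmt3b, 4.90, 6.23 and 6.33 in the Dnmt3b-deficient tumors and 5.74 and 6.19 before tumors. Rpl39l, a ribosomal protein gene of the testis, was at the floor except in Dnmt3b-deficient lymphoma replicates 2 and 3 (7.63 and 7.68) and pre-tumor replicate 2 (6.12). The lists for Sycp1 and Syce1 share no gene.

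The germ cell markers were at similar low levels in every group. Over 10 germ cell genes, 2 of which (Ddx4 and Acrv1) were at the floor on all 11 arrays, the mean log2 level was 3.86 to 3.97 in normal thymocytes, 3.77 to 3.79 in wild-type lymphomas, 3.83 to 3.91 in Dnmt3b-deficient lymphomas and 3.74 to 3.82 in pre-tumor thymocytes. The mean over 8 thymic epithelium genes was 4.84 to 4.89, 4.45 to 4.84, 4.67 to 4.96 and 4.47 to 4.48 in the same groups. The mean over 8 macrophage and monocyte genes was 5.10 to 5.42, 4.72 to 5.84, 4.37 to 5.09 and 4.29 to 4.38. The pre-tumor samples overlapped the Dnmt3b-deficient lymphomas, of which replicate 3 was at 4.37. The mean over 5 of 6 B lineage genes was 4.64 to 4.93, 3.95 to 4.68, 4.32 to 4.71 and 4.80 to 5.05. Among them Cd79a ranged from 3.32 to 6.10, highest in pre-tumor replicate 1, and Ms4a1 from 3.32 to 4.28. The part of these cell types in the levels of Sycp1, Syce1 and Stag3 was not tested.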

How the data were processed

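RNA was labelled from 300 ng of total RNA with the Ambion WT Expression kit, per the labels' protocols, and hybridised to 11 Affymetrix arrays, 1 per sample. The authors deposited log2 values in 1 table, and the submitters' processing notes name RMA and Partek, without versions. The genome build was not given in the sources used here.

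The 6573 of 35512 rows with the lowest ID numbers and no gene annotation were left out as probable controls, which is inferred from the IDs. Of the 28939 others, 21789 had 1 gene symbol in the platform annotation. No further normalization was applied. With limma 3.58.1 in R 4.3.3, group means were estimated in a single linear model of the 4 groups (eBayes without a trend), and a probe set rose or fell at a Benjamini-Hochberg adjusted p under 0.05. The code was tested on simulated data. Ties at the floor left the variance moderation weak (0.46 prior and 7 residual degrees of freedom). The labels call the samples of a group biological replicates, so p-values measure the spread between them. The number of arrays limits the precision.

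The genes and lists were chosen with earlier results of these data known. The rule for names covered all 10 genes, up to 4 passing genes per list, comparison and direction by size of difference (all where 5 or fewer passed), the 5 genes most correlated with Sycp1 and with Syce1, and Dnmt3b. The alternatives were another quantile normalization, median centring, filters on floor and dim probe sets, all rows, a variance trend, only the 2 groups compared, a replicate block and each sample left out.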

Additional observations from a re-analysis of the deposited data

Results flagged for a closer look

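Stag3 levels in wild-type lymphomas and in pre-tumor Dnmt3b-deficient thymocytes lay on opposite sides of the normal mean, neither difference passing limma: the group differences were -0.50 and 1.18 on the log2 scale, every sample of a group lying on its own side of the normal mean. Wild-type lymphoma replicate 2 lay close to that mean. The difference between these effects was not tested.

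Tex14, a gene of germ cell bridges examined after its values were seen, was above the normal mean in every Dnmt3b-deficient lymphoma and below it in both pre-tumor samples of the same genotype, with differences from normal of 1.79 and -0.10. The difference between these effects, 1.88 between Dnmt3b-deficient lymphoma and pre-tumor thymocytes, did not pass limma (adjusted p = 0.432). The pre-tumor values, 3.79 and 3.78, lay within the normal range of 3.69 to 4.09. Dnmt3b-deficient lymphoma replicate 1, at 4.17, lay within the wild-type lymphoma range of 3.76 to 4.75.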

How the results depend on the processing

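Of 532 values recomputed under 19 settings, 486 kept their direction and side of the threshold or moved little, and 11 changed sign. The number of the 10 genes past the threshold in pre-tumor against normal thymocytes, 1 as reported, became 3 without the dimmest 40% of probe sets, 0 with a replicate block, where Sycp1 was 3.44 (adjusted p = 0.0986), and 0 to 2 when 1 sample was left out; fewer probe sets are tested under the filter, and otherwise the cause was not tested. Genes of the related lists past the threshold, 20 in pre-tumor thymocytes, were 5 with only the 2 groups compared, 10 with the block and 8 to 19 when 1 sample was left out. In wild-type lymphomas 15 became 8 with the block and 8 to 16 with a sample left out. In Dnmt3b-deficient lymphomas 15 became 7 with only the 2 groups compared and 10 to 15 with a sample left out. For Dnmt3b-deficient lymphoma against pre-tumor thymocytes and against wild-type lymphoma, 0 became 0 to 1. Calls over all 28939 probe sets also fell in these fits. In pre-tumor thymocytes they were 5662 in the main fit, 2250 with only the 2 groups compared and 3269 with the block. In wild-type lymphomas 5755 became 4270 with the block. In Dnmt3b-deficient lymphomas 5860 became 4517 with only the 2 groups compared. The values that changed sign were small. Rec8 in Dnmt3b-deficient lymphoma against normal was 0.0181 after median centring, 0.0232 after quantile normalization and -0.152 to 0.0934 with a sample left out. With a sample left out, Rec8 was -0.0948 to 0.151 in pre-tumor and -0.0132 to 0.233 in wild-type lymphoma against normal, and -0.103 to 0.0323 in Dnmt3b-deficient lymphoma against pre-tumor thymocytes. Stag3 was -0.279 to 0.471 and Syce2 -0.0186 to 0.292 in Dnmt3b-deficient lymphoma against normal, and Syce2 was -0.413 to 0.0885 against pre-tumor thymocytes. Samples with the same replicate number did not pair: their deviations from group means correlated at -0.354 to 0.320 over 20036 probe sets, above 0.1 in 2 of 15 pairs, and those with different numbers were above 0.1 in 14 of 30. Levels under the floor cannot be read, which limits every statement on the genes at the floor.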

Other observations

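Tex14, needed for the intercellular bridges of germ cells and one of the listed meiotic entry genes, was highest in the tumors that were highest for Syce1. Its log2 level was 4.17, 6.37 and 6.46 in Dnmt3b-deficient lymphoma replicates 1, 2 and 3, where Syce1 was 3.98, 6.77 and 7.55. It was 3.69 to 4.09 in normal thymocytes and 3.76 to 4.75 in wild-type lymphomas. In pre-tumor thymocytes, where Syce1 was 5.63 and 6.49, Tex14 was 3.79 and 3.78. It passed limma in none of the 5 comparisons (adjusted p of 0.0789 or more) and was named here after its values were seen.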
